A study of Arabidopsis thaliana with 8 samples.

Results

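The loci described here are second entries under a gene name that the table already uses. In the table of 32232 loci, 317 nuclear gene names stand on more than 1 locus, 662 loci in all. Within each name, the locus with the highest mean FPKM over the 4 libraries without RNase R was set apart as the partner, and every other locus under that name was taken as a second locus. This gave 345 second loci and 317 partners: 292 names held 2 loci, 22 held 3 and 3 held 4. FPKM, the unit of the table, counts fragments relative to the length of the transcript and the number of fragments mapped. The choice used measured levels without RNase R, so the order of a second locus and its partner in those libraries is a description. The libraries with RNase R played no part in it.

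All RNA came from inflorescences of Arabidopsis thaliana plants of the Columbia background, kept at 22 °C under a cycle of 16 h light and 8 h dark. The groups were dbr1-2 with RNase R, Col-0 (wild type) with RNase R, dbr1-2 without RNase R and Col-0 without RNase R, with 2 libraries each. RNA of every group was first depleted of ribosomal RNA, and RNase R acted for 2 h at 37 °C. Digestion below always means RNase R. The labels do not say whether replicates came from separate plants, so p-values measure the spread between these libraries, which may be technical. The dates in the sequencing tags set the libraries apart. Both digested dbr1-2 libraries carry the earlier tag year and both digested Col-0 libraries the later one, so genotype and tag year cannot be told apart there, whereas without digestion each genotype has 1 library of each year.

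When an intron is spliced out it leaves as a lariat, a loop closed by a 2′-5′ bond at the branch point. DBR1, the lariat debranching enzyme, opens that bond, after which the linear intron is degraded. RNase R chews linear RNA from its 3′ end and leaves circular RNA and the loop of a lariat largely intact, and the study compared these groups to map branch points and lariat RNAs. Many plant genes also lie opposite transcripts of the other strand, which a stranded library can separate from the gene.

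Each of the 345 second loci was listed at the very same interval as its partner. The strand of a locus is not given in the table and was inferred from the numbering of the loci, which runs along one strand of a chromosome and then along the other. Of 30266 loci under a name used once, 99.92% lay in the run of their annotated strand. By that numbering, 302 second loci ran opposite the gene that gives their name, 41 stood on the strand of that gene, and the names of 2 had no match in the annotation. The 2 without a match were AT5G21005 and AT5G41992. Of the 302 opposite loci, 294 had a partner on the strand of the gene. Of the 41 loci on the strand of the gene, 37 had a partner on the other strand.

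The intervals had a median length of 3816 nt and ran between 751 and 19833 nt. For 129 second loci the interval held no other locus than the partner, and for 216 it held further loci. An annotated gene on the second locus's own strand lay in the interval for 202 of the 302 opposite loci, and 100 had none. The second loci were spread over the nuclear chromosomes, with 89, 54, 78, 45 and 79 on chromosomes 1 to 5. Protein-coding genes gave the names of 330 of the 345. The table does not place a second locus within its interval.

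The named genes carried many introns. A median of 6 distinct introns was annotated for the 315 matched names, against 3 for all 24779 matched protein-coding nuclear names. Only 6.03% of the names with second loci lacked an intron, against 19.0% of protein-coding names. Their longest intron had a median of 411 nt, against 301 nt, and the genes a median length of 2751 nt, against 2103 nt. Of their 2435 distinct introns, 98.56% began with GT and ended with AG.

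Introns from 5 of these genes are shown because their second loci had some of the greatest increases in dbr1-2 or with RNase R. Each is the longest intron of at most 300 nt that lies between coding exons inside the shared interval and overlaps no exon of any annotated transcript of the gene. They were read from RefSeq TAIR10.1 on the strand of the gene, 5′ to 3′, with the splice site dinucleotides in capitals. The second loci were numbered on the other strand, and no value here belongs to an intron itself.
GRF2 (chr1:29462360-29462536, plus strand): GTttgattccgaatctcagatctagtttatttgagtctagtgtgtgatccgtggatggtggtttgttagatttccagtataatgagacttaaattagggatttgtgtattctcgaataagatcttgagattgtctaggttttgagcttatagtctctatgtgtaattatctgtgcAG
RAP2.12 (chr1:20135537-20135799, plus strand): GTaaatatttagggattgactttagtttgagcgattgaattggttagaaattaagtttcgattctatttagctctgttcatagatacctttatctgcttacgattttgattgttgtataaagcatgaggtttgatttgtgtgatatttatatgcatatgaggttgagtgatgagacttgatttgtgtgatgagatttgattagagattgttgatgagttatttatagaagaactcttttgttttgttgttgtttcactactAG
AT2G15580 (chr2:6797873-6798025, plus strand): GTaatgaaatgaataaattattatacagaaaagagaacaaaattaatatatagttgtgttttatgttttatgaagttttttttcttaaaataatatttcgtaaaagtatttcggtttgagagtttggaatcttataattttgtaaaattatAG
AT1G60080 (chr1:22153067-22153333, minus strand): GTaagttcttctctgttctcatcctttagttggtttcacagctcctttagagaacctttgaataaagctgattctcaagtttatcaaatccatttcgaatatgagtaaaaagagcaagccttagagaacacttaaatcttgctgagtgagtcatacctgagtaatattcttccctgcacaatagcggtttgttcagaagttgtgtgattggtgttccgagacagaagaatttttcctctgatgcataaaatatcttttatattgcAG
PCME (chr5:5180725-5180985, minus strand): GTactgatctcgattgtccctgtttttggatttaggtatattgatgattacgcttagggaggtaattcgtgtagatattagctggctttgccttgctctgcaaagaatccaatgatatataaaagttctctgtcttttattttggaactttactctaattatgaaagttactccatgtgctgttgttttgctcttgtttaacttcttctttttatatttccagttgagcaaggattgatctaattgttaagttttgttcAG

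Facts of the libraries bear on every value below. Sums of FPKM over all loci ran between 2796449 and 4003096 with digestion and between 295494 and 384482 without. Steps between low values of single-exon loci gave the worth of 1 read on a transcript of 1 kb as 0.0791 to 0.116 FPKM with RNase R and 0.0111 to 0.0134 FPKM without, with 76.4% to 96.1% of low values whole within 0.05 reads. Low FPKM are therefore coarser with RNase R. DBR1 itself had 0.265 and 0.260 FPKM in dbr1-2 and 0.202 and 0.188 FPKM in Col-0 with digestion, and 0.339 and 0.430 FPKM in dbr1-2 and 0.662 and 0.694 FPKM in Col-0 without. No source used here gives the lesion of the allele, so these levels do not check the genotype. The 8 inflorescence markers were detected in each group without RNase R, with sums of 71.5 to 76.0 FPKM in dbr1-2 and 71.6 to 74.1 FPKM in Col-0. Single markers went both ways there. PI and SEP1 were higher in both dbr1-2 libraries, AP1, AG, SEP2, SEP3 and LFY were lower, and AP3 overlapped. LFY had at most 0.158 FPKM. With digestion the sums were 25.97 to 26.22 FPKM in dbr1-2 and 30.68 to 32.62 FPKM in Col-0, where LFY was at 0. The kit marks strand, but no source used here says whether the counting used it, so reads of a second locus and of its partner may have been divided between them and each such level is uncertain.

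The FPKM of most second loci was higher in RNA that had met RNase R. With RNase R the median second locus had 8.07 and 6.21 FPKM in the 2 dbr1-2 libraries and 3.18 and 3.09 FPKM in the 2 Col-0 libraries. Without digestion it had 0.481 and 0.411 FPKM in dbr1-2 and 0.287 and 0.275 FPKM in Col-0. The medians of the libraries with RNase R all lay above those without, and within each treatment both dbr1-2 medians lay above both Col-0 medians. FPKM sums of whole libraries were higher with RNase R too, as given above. As a share of the FPKM sum of their library, second loci held 0.754% and 0.889% in dbr1-2 and 0.0808% and 0.0640% in Col-0 with RNase R, and 0.313% and 0.502% in dbr1-2 and 0.0697% and 0.175% in Col-0 without. That share was above both undigested libraries in dbr1-2 but not in Col-0, where 1 digested library lay between the undigested ones and 1 below both. A second locus of AT4G03360, described near the end, had the highest FPKM in each dbr1-2 library and in each undigested Col-0 library. It so made the largest part of these shares there. In undigested Col-0 it held 87.5 of 235 FPKM and 371 of 516 FPKM summed over second loci. In digested Col-0 it held 111 of 2259 FPKM and 111 of 2413 FPKM. The order of the Col-0 shares thus depends on this locus. The median of partners was taken over the 345 pairs, so a partner of several second loci counted once for each. It was lower with RNase R, at 1.19 and 1.04 FPKM in dbr1-2 and 1.00 and 1.05 FPKM in Col-0 with digestion. Without digestion it was 2.59 and 2.47 FPKM in dbr1-2 and 2.2 and 2.26 FPKM in Col-0.

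**Figure D1:**
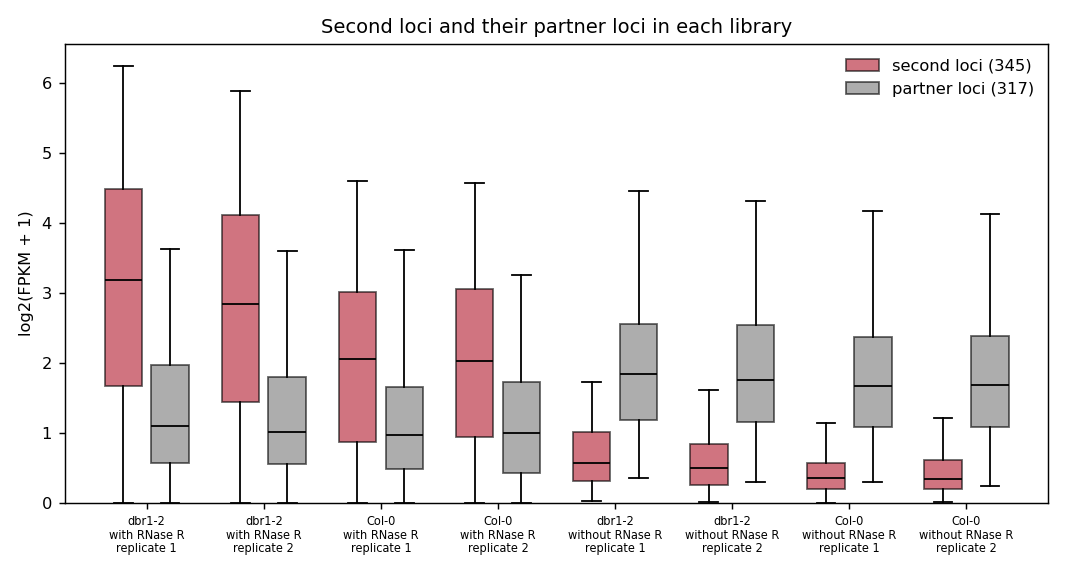
Distribution of log2(FPKM + 1) over the 345 second loci (red) and the 317 partner loci (grey) in each of the 8 libraries; the line is the median, the box the middle quartiles and the whiskers the 5th and 95th percentiles. The medians of second loci lie above those of partners in the 4 libraries with RNase R and below them in the 4 without.

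At least 1 FPKM was reached by 285 and 278 second loci in dbr1-2 and by 253 and 254 in Col-0 with RNase R. Without RNase R, 89 and 62 reached it in dbr1-2 and 28 and 27 in Col-0. A level of 0 was listed for 18 and 16 second loci in dbr1-2 and 19 and 23 in Col-0 with RNase R, and for 5 and 8 in dbr1-2 and 10 and 13 in Col-0 without.

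The order within a pair turned over with RNase R. In both dbr1-2 libraries with RNase R, 264 of the 345 second loci (76.5%) had a higher FPKM than their partner, and 231 (67.0%) did in both Col-0 libraries with RNase R. The median difference between second locus and partner, on the log2(FPKM + 1) scale, was 1.69 in dbr1-2 and 0.93 in Col-0 with RNase R. Without RNase R, where the choice of partner sets the order, it was -1.13 in dbr1-2 and -1.24 in Col-0, and 6 second loci in dbr1-2 and 4 in Col-0 were above their partner in both libraries. All 4 libraries with RNase R had the second locus above the partner for 218 second loci (63.2%). These are counts, with no test over the loci.

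Pairs of loci in 1 interval under different names gave lower shares, a comparison made with no test. Among 3058 loci that shared an interval with a locus of another name higher without RNase R, chosen for comparison after values had been seen, 11.7% were above that locus in both dbr1-2 libraries with RNase R and 11.8% in both Col-0 libraries with RNase R. For the 2721 of them numbered on another strand than the higher locus, the shares were 12.2% in dbr1-2 and 12.4% in Col-0. Under a repeated name, the 294 opposite second loci with a partner on the strand of the gene were above it in 253 cases (86.05%) in dbr1-2 and 220 cases (74.83%) in Col-0. The 37 second loci on the strand of the gene, whose partner was the opposite locus, were above it in 7 cases in dbr1-2 and 6 in Col-0.

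**Figure D2:**
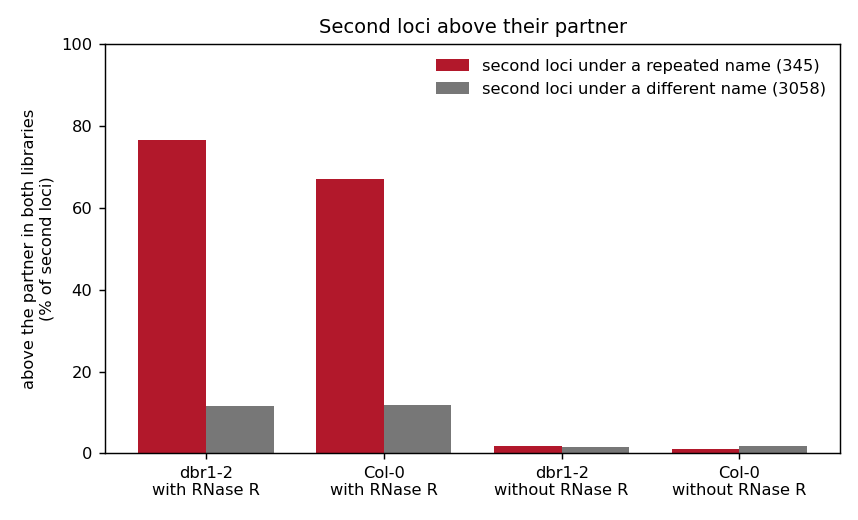
Percentage of second loci with a higher FPKM than their partner in both libraries of a group. For 345 loci under a repeated name (red) the partner is the locus of that name with the highest mean without RNase R, and for 3058 under a different name (grey) it is the locus of the interval with the highest such mean. With RNase R the red bars reach 76.5% in dbr1-2 and 67.0% in Col-0, and the grey bars 11.7% and 11.8%.

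Levels were tested with limma on log2(FPKM + 1) in 1 fit of the 4 groups, over the 14351 loci that reached 1 FPKM in 2 libraries or more, with Benjamini-Hochberg adjustment over those loci and a threshold of 0.05. Of the 345 second loci, 288 met this level and 57 did not. Of the 345, 282 would have met it by the libraries with RNase R alone and 62 by those without alone, so a locus high with RNase R was more likely to be tested. Counts are therefore given also for the fit of 27445 loci with no minimum level, which tested 343 of the 345.

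Most second loci were higher with RNase R in both genotypes. With RNase R against none, 275 second loci were higher and 9 lower in dbr1-2, while 15.0% of all tested loci were higher and 69.3% lower. In Col-0, 251 were higher and 12 lower, while 8.27% of all tested loci were higher and 71.0% lower. With no minimum level the counts were 281 higher and 20 lower in dbr1-2, beside 8.34% and 45.7% of all loci, and 248 higher and 21 lower in Col-0, beside 6.80% and 46.0%. Second loci were chosen as low without RNase R, which favours a rise, so these counts are a description. The median difference over all 345 was 2.54 in dbr1-2 and 1.65 in Col-0 on the log2(FPKM + 1) scale, and over all loci of the table it was -0.07 in dbr1-2 and -0.09 in Col-0.

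The scale between treatments decides part of this count. With organelle loci left out and the rest rescaled to 1 sum, the median of all tested loci moved to -2.88 in dbr1-2 and -2.84 in Col-0, against -0.69 in dbr1-2 and -0.66 in Col-0 as deposited. The split was then 175 higher and 54 lower in dbr1-2, and 124 higher and 79 lower in Col-0. Under median-ratio scaling, which moved the median of all tested loci to -0.03 in dbr1-2 and -0.01 in Col-0, it was 282 higher and 2 lower in dbr1-2, and 263 higher and 1 lower in Col-0. The order within a pair of 1 library, given above, does not depend on these scalings. The tag of dbr1-2 replicate 1 with RNase R names removal of ribosomal RNA alone, while the tags of the other 7 libraries also name mRNA removal. Without that library, 256 second loci were higher and 9 lower in dbr1-2. Within the earlier tag year the dbr1-2 counts were 272 and 9, and within the later one the Col-0 counts were 245 and 12. Each of these sets has a single undigested library, which is assumed to vary like the libraries of the other groups in the fit.

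Most second loci called higher were numbered opposite their gene. With no minimum level, 271 of the 302 opposite second loci were higher and 7 lower with RNase R in dbr1-2, and 244 were higher and 10 lower in Col-0. Of the 41 on the strand of the gene, 9 were higher and 13 lower in dbr1-2, and 3 were higher and 11 lower in Col-0. The median difference of the opposite loci was 2.78 in dbr1-2 and 1.90 in Col-0, and that of the loci on the gene's strand was -0.03 in both genotypes. The difference between the 2 classes was not tested, since the direction of the pairs is linked to the choice of partner. Of the 100 opposite loci with no annotated gene of their own strand in the interval, 87 were higher in dbr1-2 and 69 in Col-0. Where the interval held no locus but the pair, 95 of 129 were higher and 10 lower in dbr1-2, and 74 were higher and 11 lower in Col-0.

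The opposite loci were also counted by the number of introns of the named gene. Of 6 opposite loci named after a gene with no intron, 2 were higher with RNase R in dbr1-2 and 1 in Col-0. Of 85 with 1 to 4 introns, 71 were higher in dbr1-2 and 65 in Col-0. Of 105 with 5 to 9 introns, 97 were higher in dbr1-2 and 83 in Col-0. Of 106 with 10 or more introns, 101 were higher in dbr1-2 and 95 in Col-0. These counts come from the fit with no minimum level and carry no test, and genes with more introns are also longer.

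Of the 317 partners, 268 were tested, and with RNase R 25 were higher and 209 lower in dbr1-2, and 20 were higher and 215 lower in Col-0. These shares stand beside 69.3% of all tested loci lower in dbr1-2 and 71.0% in Col-0. A higher second locus stood with a lower partner in 204 cases in dbr1-2 and 194 in Col-0. Both were higher in 17 cases in dbr1-2 and 13 in Col-0. Because partners were chosen as high without RNase R, this too is a description.

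GRF2 (AT1G78300, locus XLOC_007863, chromosome 1, 29461671 to 29463385) encodes a 14-3-3 protein, a family that binds phosphorylated partners. Its second locus had 966 and 330 FPKM in dbr1-2 and 159 and 174 FPKM in Col-0 with digestion. Without digestion it had 8.99 and 7.80 FPKM in dbr1-2 and was at 0 in each Col-0 library. Every library with RNase R was above every library without, and both dbr1-2 libraries were above both Col-0 libraries in each treatment. On the log2(FPKM + 1) scale the second locus differed between digested and undigested RNA by 5.91 in dbr1-2 and 7.38 in Col-0. For this and every other second locus, such a difference is a description with no test, since the choice used the undigested levels. In dbr1-2 against Col-0 the difference was 1.76 ± 0.41 with RNase R (SE, n = 2 libraries a group; limma, Benjamini-Hochberg adjusted p = 0.0114) and 3.23 ± 0.41 without (limma adjusted p = 0.00203). The choice averaged the undigested levels over both genotypes. Here and below, the comparison of genotypes without RNase R is therefore not fully separate from it. The partner had 8.90 and 5.67 FPKM in dbr1-2 and 4.88 and 7.31 FPKM in Col-0 with digestion, and 26.8 and 25.8 FPKM in dbr1-2 and 21.6 and 21.9 FPKM in Col-0 without. It was thus lower with RNase R in every library, and its difference between genotypes did not pass with or without RNase R (limma adjusted p = 0.453 and 0.432).

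RAP2.12 (AT1G53910, locus XLOC_006615, chromosome 1, 20135112 to 20136970) encodes an ERF transcription factor of the response to low oxygen. Its second locus had 191 and 174 FPKM in dbr1-2 and 19.3 and 19.4 FPKM in Col-0 with digestion, and 5.97 and 3.74 FPKM in dbr1-2 and 0.786 and 0.580 FPKM in Col-0 without. The 4 groups did not overlap. It was higher in dbr1-2 by 3.17 ± 0.17 with RNase R and by 1.77 ± 0.17 without (log2(FPKM + 1), SE; limma adjusted p = 1.50e-05 and 0.000815). The partner had 9.57 and 9.77 FPKM in dbr1-2 and 7.97 and 7.03 FPKM in Col-0 with digestion, and was higher in dbr1-2 by 0.33 (limma adjusted p = 0.0233), a small change beside that of the second locus.

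AT2G15580 (RING/U-box superfamily, locus XLOC_011511, chromosome 2, 6797385 to 6799114) had a second locus at 118 and 124 FPKM in dbr1-2 and 8.03 and 4.69 FPKM in Col-0 with digestion. Without digestion it was at 2.94 and 3.46 FPKM in dbr1-2 and at 1.53e-05 and 0.0611 FPKM in Col-0. The groups did not overlap in either treatment, and dbr1-2 was higher by 4.09 ± 0.20 with RNase R and 2.02 ± 0.20 without (limma adjusted p = 9.45e-06 and 0.000815). Here the partner changed as well: it had 14.2 and 9.36 FPKM in dbr1-2 and 1.00 and 0.923 FPKM in Col-0 with digestion, a difference of 2.68 (limma adjusted p = 3.05e-05). No source used here says how the reads of these 2 overlapping loci were divided.

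AT1G60080 (3′-5′ exoribonuclease family, a group of RNA-degrading enzymes; locus XLOC_002986, chromosome 1, 22152230 to 22154589) had a second locus at 64.2 and 66.1 FPKM in dbr1-2 and 4.16 and 5.49 FPKM in Col-0 with digestion. Without digestion it was at 2.68 and 1.55 FPKM in dbr1-2 and 0.191 and 0.223 FPKM in Col-0. It was higher in dbr1-2 by 3.51 ± 0.18 with RNase R and 1.34 ± 0.18 without (limma adjusted p = 1.25e-05 and 0.00263). The partner stayed at or under 1.51 FPKM in all 8 libraries.

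Between genotypes, second loci were more often higher in dbr1-2, chiefly after RNase R. With RNase R, 199 second loci were higher and 8 lower in dbr1-2 than in Col-0, while 29.9% of all tested loci were higher and 7.09% lower. With no minimum level, 179 were higher and 9 lower, beside 14.7% and 5.45% of all loci. The median difference over all 345 was 0.74 on the log2(FPKM + 1) scale, against 0.00 over all loci of the table and 0.15 over tested loci. Both dbr1-2 libraries were above both Col-0 libraries at 235 of the 345, beside 23.5% of all loci of the table. Of the 302 opposite loci, 175 were higher and 8 lower with no minimum level, and of the 41 on the gene's strand, 4 were higher and 1 lower.

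With tag year in the fit, its effect being estimated from the undigested libraries and assumed equal in digested ones, 129 second loci were higher and 3 lower. With organelle loci left out and the rest rescaled, 108 were higher and 4 lower. Sums of the 3 pollen markers moved with genotype, at 1.30 to 2.89 FPKM in dbr1-2 and 6.0 to 6.23 FPKM in Col-0 with digestion, and at 3.79 to 4.28 FPKM in dbr1-2 and 14.3 to 15.3 FPKM in Col-0 without. Their part in these results was not tested, and in whole inflorescences fewer cells of a type and less RNA per cell cannot be told apart. Root hair markers summed to at most 0.38 FPKM and seed storage markers to at most 0.065 FPKM in any library.

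Without RNase R the median shift on the log2(FPKM + 1) scale was small, and the count of calls moved with the processing. Of the 345, 256 and 283 in dbr1-2 and 317 and 318 in Col-0 were under 1 FPKM there. At such levels this scale understates a change, so the small shift and the few calls partly reflect low levels. In dbr1-2 against Col-0, 36 second loci were higher and 1 lower, while 14.2% of all tested loci were higher and 3.32% lower. Second loci were chosen by the mean of these same libraries over both genotypes. A locus raised in undigested dbr1-2 could so become the partner instead, as under AT4G32420 below, and the counts carry that limit. The counts were 67 and 9 with organelle loci left out and the rest rescaled, and 15 and 1 under median-ratio scaling. With no minimum level 19 were higher and 2 lower, beside 6.82% and 2.26%, and the share of the 345 that was higher (5.51%) lay under that background. The median difference over all 345 was 0.11, against 0.00 over all loci of the table and 0.13 over tested loci. Both dbr1-2 libraries were above both Col-0 libraries at 169 of the 345, beside 33.3% of all loci of the table. Within the earlier tag year, 265 of the 345 were higher in the dbr1-2 library, and within the later one 237 were, with median differences of 0.15 and 0.08. The matching share over all loci was not counted, so these counts have no background beside them. Leaving out any 1 of the 4 libraries without RNase R left 14 to 19 calls in place of 37. Of the 36 higher without RNase R, 33 were also among the 199 higher with it, which is 91.7% of the 36 and 16.6% of the 199. Those 199 are already most of the 288 second loci tested, and the overlap over all tested loci was not counted.

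Other second loci that were higher in dbr1-2 shared the names of genes of various roles. A level given here or below under a gene name is that of its second locus, unless the partner is named. Most of these loci ran opposite the gene, so such levels are not those of its own transcript. DJ1B (AT1G53280, a glutamine amidotransferase-like protein of the DJ-1 family) had 58.9 and 69.9 FPKM in dbr1-2 and 3.32 and 1.94 FPKM in Col-0 with digestion, and 2.07 and 1.98 FPKM in dbr1-2 and 0.193 and 0.358 FPKM in Col-0 without. Both differences passed, at 4.19 with RNase R and 1.25 without (limma adjusted p = 7.41e-06 and 0.00366). AT5G18400, a Fe-S cluster biogenesis protein, had 144 and 103 FPKM in dbr1-2 and 4.69 and 11.5 FPKM in Col-0 with digestion, and was higher by 3.87 (limma adjusted p = 0.000202). Its difference without RNase R, 1.5 (limma adjusted p = 0.0345), rested on libraries at 3.39 and 1.53 FPKM in dbr1-2 and 0.268 and 0.0965 FPKM in Col-0. That call was lost with any 1 of these 4 left out (limma adjusted p between 0.0563 and 0.231).

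CPSRP54 (AT5G03940), the subunit of the chloroplast signal recognition particle that helps light-harvesting proteins to the thylakoid, had a second locus at 131 and 96.7 FPKM in dbr1-2 and 12.6 and 13.4 FPKM in Col-0 with digestion. The groups lay well apart there (difference 3.02, limma adjusted p = 0.000188). Without digestion it had 4.05 and 1.74 FPKM in dbr1-2 and 1.02 and 0.394 FPKM in Col-0, and the difference of 1.15 (limma adjusted p = 0.0353) did not pass without dbr1-2 replicate 1 (0.203) or without either Col-0 replicate (0.0733 without replicate 1 and 0.217 without replicate 2). It also narrowly missed the threshold without digested Col-0 replicate 1 (0.0523) or replicate 2 (0.0539). Its partner had 6.26 and 4.16 FPKM in dbr1-2 with RNase R and 16.7 and 19.2 FPKM without.

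CYCD1;1 (AT1G70210), a D-type cyclin of the cell cycle, was among the highest second loci in both treatments. It had 171 and 125 FPKM in dbr1-2 and 10.6 and 9.98 FPKM in Col-0 with digestion. Without digestion it had 6.04 and 4.59 FPKM in dbr1-2 and 5.30 and 2.74 FPKM in Col-0, where the groups overlapped. The genotype difference was 3.71 with RNase R (limma adjusted p = 3.66e-05) and 0.37 without (limma adjusted p = 0.360). An annotated gene of the second locus's own strand lay in the interval for CYCD1;1, DJ1B, AT5G18400, CPSRP54, AT3G57570, AT1G21350, AT1G67930, PRMT7 and AT1G55270. The intervals of GRF2, RAP2.12, AT2G15580, AT1G60080, AT4G14720, CRK19, AT2G30530, AT1G72480 and PCME held none. Whether such a gene gave the reads was not tested.

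AT4G14720, of the TIFY domain family, had a second locus at 34.5 and 40.3 FPKM in dbr1-2 and 3.22 and 0 FPKM in Col-0 with digestion, a difference of 4.22 (limma adjusted p = 0.00103). CRK19 (AT4G23270), a cysteine-rich receptor-like kinase, had 17.2 and 24.4 FPKM in dbr1-2 and 1.28 and 1.84 FPKM in Col-0 with digestion (difference 3.08, limma adjusted p = 2.77e-05), and at most 0.210 FPKM in any library without. In both genes the second locus of dbr1-2 stood far above its partner, which had at most 2.82 FPKM in AT4G14720 and 0.162 FPKM in CRK19 in dbr1-2 with RNase R. AT3G57570, an ARM repeat protein, has 2 second loci. One, locus XLOC_019440, had 57.8 and 61.4 FPKM in dbr1-2 and 6.35 and 1.29 FPKM in Col-0 with digestion (difference 3.88, limma adjusted p = 0.000444). The other, locus XLOC_019439, had 5.10 and 3.63 FPKM in dbr1-2 and 3.71 and 3.72 FPKM in Col-0 there, and its difference of 0.17 did not pass (limma adjusted p = 0.351).

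A pair of further rises rested on uneven libraries. AT2G30530, a CCCH zinc finger protein, had 74.9 and 26.3 FPKM in dbr1-2 and 0 and 6.32 FPKM in Col-0 with digestion, and its difference of 4.07 (limma adjusted p = 0.00995) did not pass without dbr1-2 replicate 1 (0.0587) or with tag year in the fit (0.162). AT1G21350, a thioredoxin superfamily protein, also has 2 second loci. One, locus XLOC_001094, had 43.6 and 54.1 FPKM in dbr1-2 and 0 and 7.01 FPKM in Col-0 (difference 4.13, limma adjusted p = 0.00468), and did not pass with tag year in the fit (0.0770). The other, locus XLOC_001095, had 8.48 and 7.47 FPKM in dbr1-2 and 4.05 and 2.67 FPKM in Col-0 (difference 1.06, limma adjusted p = 0.00493).

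**Figure D3:**
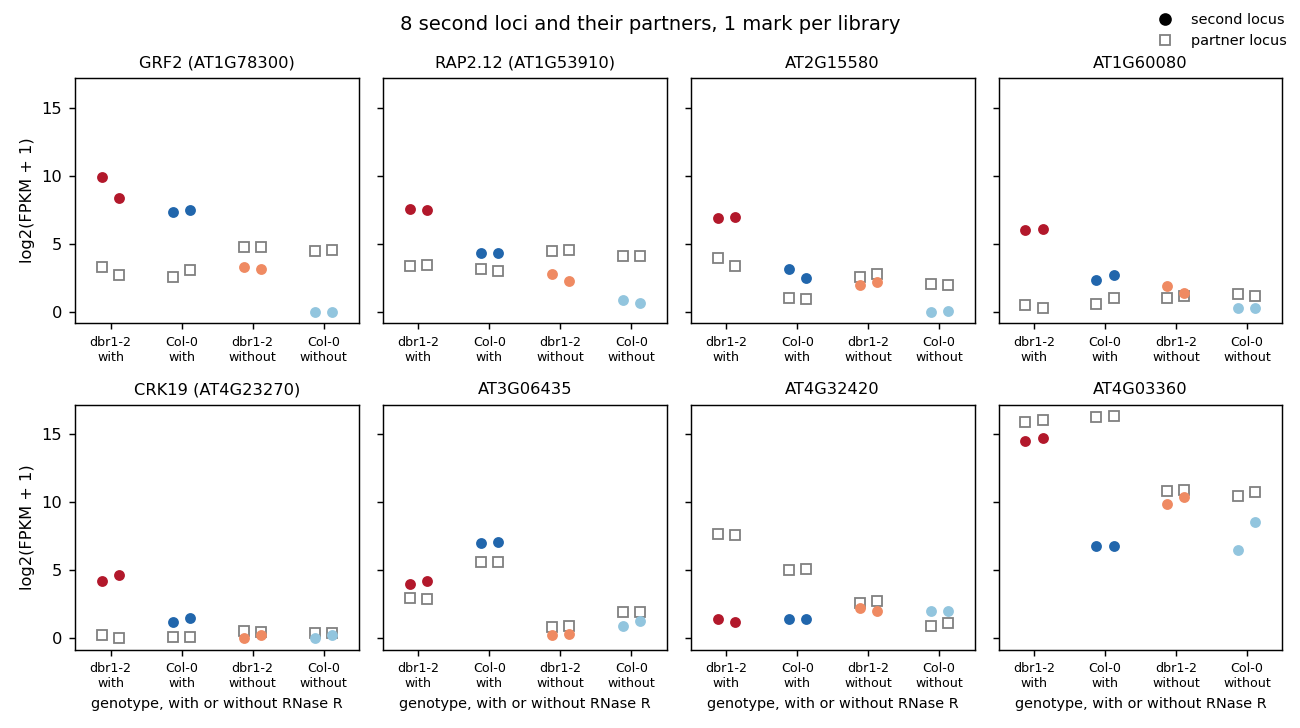
FPKM on the log2(FPKM + 1) scale of 8 second loci (filled circles) and their partners (open squares), with 1 mark per library. GRF2, RAP2.12, AT2G15580, AT1G60080 and CRK19 are highest in dbr1-2 with RNase R; AT3G06435 is highest in Col-0 with RNase R, AT4G32420 has a partner that exceeds it with RNase R, and AT4G03360 is at 23340 and 27141 FPKM in dbr1-2 with RNase R.

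Some second loci stood far higher with RNase R in both genotypes. AT1G72480, a seven-transmembrane family protein, had a second locus at 90.1 and 55.3 FPKM in dbr1-2 and 42.2 and 44.3 FPKM in Col-0 with digestion, and 1.12 and 0.285 FPKM in dbr1-2 and 0.0716 and 0.798 FPKM in Col-0 without. The difference between digested and undigested RNA was 5.44 in dbr1-2 and 4.99 in Col-0. The higher of the 2 second loci of AT1G67930, a Golgi transport complex protein, was locus XLOC_003405. It had 106 and 94.5 FPKM in dbr1-2 and 60.9 and 72.2 FPKM in Col-0 with digestion, and between 1.45 and 2.52 FPKM in the 4 libraries without, a difference of 4.91 in dbr1-2 and 4.64 in Col-0. The other, locus XLOC_003404, had 39.0 and 47.0 FPKM in dbr1-2 and 9.77 and 11.9 FPKM in Col-0 with digestion.

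PRMT7 (AT4G16570), an arginine methyltransferase, had 27.7 and 48.0 FPKM in dbr1-2 and 23.2 and 23.2 FPKM in Col-0 with digestion. Without digestion it had 0.934 and 0 FPKM in dbr1-2 and was at 0 in each Col-0 library. It reached 1 FPKM in the digested libraries alone, and differed by 4.75 in dbr1-2 and 4.60 in Col-0. PCME (AT5G15860), a prenylcysteine methylesterase, had 94.2 and 68.9 FPKM in dbr1-2 and 7.57 and 16.3 FPKM in Col-0 with digestion, and 2.03 and 0.855 FPKM in dbr1-2 and 0.443 and 0.192 FPKM in Col-0 without. Its difference was 5.10 in dbr1-2 and 3.22 in Col-0. AT1G55270, a kelch repeat protein, had 51.5 and 55.8 FPKM in dbr1-2 and 15.6 and 14.8 FPKM in Col-0 with digestion, while its partner had at most 0.468 FPKM there.

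Few second loci were lower in dbr1-2. AT3G06435, an uncharacterized gene with 1 intron, had 14.9 and 17.8 FPKM in dbr1-2 and 131 and 136 FPKM in Col-0 with digestion, and 0.182 and 0.252 FPKM in dbr1-2 and 0.857 and 1.38 FPKM in Col-0 without. It fell by 2.96 on the log2(FPKM + 1) scale with RNase R and by 0.79 without (limma adjusted p = 8.91e-06 and 0.00764). Its partner had the same order, at 6.67 and 6.49 FPKM in dbr1-2 and 48.5 and 48.1 FPKM in Col-0 with digestion (difference -2.70, limma adjusted p = 2.11e-06). AT3G44570, a retrotransposon ORF, had 1.48 and 3.17 FPKM in dbr1-2 and 8.54 and 12.4 FPKM in Col-0 with digestion (difference -1.81, limma adjusted p = 0.000955), and its partner moved with it, at 0.996 and 1.83 FPKM in dbr1-2 and 11.0 and 13.1 FPKM in Col-0.

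The other falls were small. AT3G61310, an AT-hook DNA-binding protein, had 9.72 and 6.55 FPKM in dbr1-2 and 15.4 and 16.2 FPKM in Col-0 with digestion (difference -0.90, limma adjusted p = 0.00352, and 0.0526 with tag year in the fit). AT1G71410, an ARM repeat protein, had 5.13 and 6.02 FPKM in dbr1-2 and 8.13 and 8.97 FPKM in Col-0 (difference -0.54, limma adjusted p = 0.0102, and 0.0647 with a pseudocount of 0.1). BTF3 (AT1G17880), a basic transcription factor, had 13.8 and 13.7 FPKM in dbr1-2 and 16.8 and 20.3 FPKM in Col-0. Its difference of -0.40 (limma adjusted p = 0.0492) did not pass in most alternatives, nor did that of AT3G59950, a C54 peptidase, at -0.30 (limma adjusted p = 0.0433).

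The RNase R effect also differed between genotypes. In the interaction of genotype and RNase R, 115 second loci had a more positive difference in dbr1-2 than in Col-0, and 4 a more negative one. Of all tested loci, 10.8% were called in the first direction and 2.99% in the other. With no minimum level 83 and 1 were called, beside 4.55% and 1.81%. Tag year in the fit left 49 and 1, a pseudocount of 0.1 left 45 and 4, and leaving out organelle loci gave 40 and 5. The count thus depends on each of these choices. The interaction also draws on the undigested levels by which second loci were chosen.

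Of the second loci called lower with RNase R, 7 of the 9 in dbr1-2 and 7 of the 12 in Col-0 were on the strand of their gene. In each genotype that is 7 of the 14 tested second loci on that strand. Of all tested loci, 69.3% were lower in dbr1-2 and 71.0% in Col-0, a greater share. With no minimum level, 13 of the 20 called lower in dbr1-2 and 11 of the 21 in Col-0 were on that strand. There 39 on that strand were tested, and 45.7% of all loci were lower in dbr1-2 and 46.0% in Col-0. AT4G32420, a cyclophilin-like peptidyl-prolyl isomerase with 16 introns, shows such a pair turned round. Its second locus, on the gene's strand, had 1.65 and 1.35 FPKM in dbr1-2 and 1.69 and 1.65 FPKM in Col-0 with digestion, and 3.62 and 3.04 FPKM in dbr1-2 and 3.07 and 2.96 FPKM in Col-0 without. The partner, numbered on the opposite strand, had 201 and 192 FPKM in dbr1-2 and 32.3 and 34.1 FPKM in Col-0 with digestion, and 4.95 and 5.84 FPKM in dbr1-2 and 0.870 and 1.16 FPKM in Col-0 without. The partner differed between digested and undigested RNA by 4.95 in dbr1-2 and 4.09 in Col-0. It was chosen as the partner by its dbr1-2 levels, since in Col-0 without RNase R the second locus was above it.

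SYNC3 (AT1G70980), an aminoacyl-tRNA synthetase on the gene's strand, had 2.12 and 1.96 FPKM in dbr1-2 and 1.87 and 1.61 FPKM in Col-0 with digestion, and 4.03 and 3.56 FPKM in dbr1-2 and 2.78 and 2.70 FPKM in Col-0 without. Its difference was -0.66 in dbr1-2 and -0.45 in Col-0 on the log2(FPKM + 1) scale, near the median of all tested loci, and under median-ratio scaling the differences of SYNC3 were 0.04 and 0.23. Likewise the difference of the AT4G32420 second locus, -0.79 in dbr1-2 and -0.59 in Col-0, was -0.14 and 0.09 under that scaling. VFB1 (AT1G47056), an F-box protein with no intron, had an opposite second locus listed at 0 in all 4 digested libraries and at 1.25 and 3.10 FPKM in dbr1-2 and 1.82 and 1.77 FPKM in Col-0 without. AT5G04670, an enhancer of polycomb-like protein, had 0.619 and 0.398 FPKM in dbr1-2 and 1.42 and 1.72 FPKM in Col-0 with digestion, and 3.51 and 3.03 FPKM in dbr1-2 and 2.77 and 3.59 FPKM in Col-0 without. Its differences were -1.50 in dbr1-2 and -0.70 in Col-0, and the one in Col-0 was -0.02 under median-ratio scaling. AT5G65860, an ankyrin repeat protein, had a difference of -0.40 in dbr1-2 and -1.20 in Col-0, and the interaction did not pass (limma adjusted p = 0.192).

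One of the 2 second loci of AT4G03360, locus XLOC_022488, named after a ubiquitin family protein and on the strand of that gene, had the highest mean level of the second loci in both treatments. It had 23340 and 27141 FPKM in dbr1-2 and 111 and 111 FPKM in Col-0 with digestion, and 934 and 1376 FPKM in dbr1-2 and 87.5 and 371 FPKM in Col-0 without. Its partner had 61613 and 68108 FPKM in dbr1-2 and 80417 and 82860 FPKM in Col-0 with digestion, and 1806 and 1927 FPKM in dbr1-2 and 1403 and 1708 FPKM in Col-0 without. The other second locus had at most 0.0512 FPKM in any library. The interval holds 4 loci, so the division of reads among them is uncertain. The first was higher in dbr1-2 by 7.81 ± 0.56 with RNase R (limma adjusted p = 4.62e-05). Without RNase R the difference was 2.64 (limma adjusted p = 0.0166), and it did not pass without dbr1-2 replicate 1 (0.0700) or replicate 2 (0.114), or with no minimum level (0.0603).

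At the edge of the choice stood second loci almost level with their partner without RNase R. The closest pair, named ANAC026 (AT1G62700), had second locus levels of 0.147 and 0.131 FPKM in dbr1-2 and 0.129 and 0.0772 FPKM in Col-0 without digestion, and partner levels of 0.263 and 0 FPKM in dbr1-2 and 0.222 and 0 FPKM in Col-0. The next were AT4G32420, given above, and AT5G04670, whose partner had 3.34 and 3.07 FPKM in dbr1-2 and 3.27 and 3.37 FPKM in Col-0. With the partner chosen by undigested Col-0 libraries alone, 269 second loci were above it in dbr1-2 and 235 in Col-0 with RNase R. None of 19 listed genes of splicing, lariat debranching and small RNA gave a second locus its name.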

How the data were processed

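RNA of 8 libraries of Arabidopsis inflorescences, 2 for each of 4 groups, was depleted of ribosomal RNA and sequenced from stranded libraries, per the labels' protocols. The authors deposited 1 table of FPKM per locus and library. TopHat2 2.0.13, Cufflinks 2.2.1, Cuffnorm 2.2.1 and TAIR10 are named per the submitters' processing notes; settings, the use of strand and how reads of overlapping loci were divided are not given in the sources used here.

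Gene names were matched to RefSeq TAIR10.1, and strand was inferred from runs of rising position in the locus numbers. With limma 3.58.1 in R 4.3.3, log2(FPKM + 1) was fitted over all 8 libraries in 4 groups, for the 14351 loci that reached 1 FPKM in 2 libraries or more (lmFit, eBayes with trend, two-sided, Benjamini-Hochberg over these loci, threshold 0.05). A difference on this scale understates the change of low loci. Levels of second locus and partner were compared by counts. Loci named were those with the largest passing differences per comparison, the highest levels, the greatest ratio to the partner, and the closest and widest pairs. Members and lists were chosen with earlier results of these data known. Replicate numbers were not taken to pair libraries: replicate differences correlated at 0.30 between dbr1-2 and Col-0 without RNase R, whose tag years match, and at -0.05 to 0.08 in the other 5 pairs of groups. Alternatives were the pseudocount, the minimum level, scaling, organelle loci, tag year, a replicate block, the libraries in the fit and each library left out.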

Additional observations from a re-analysis of the deposited data

Results flagged for a closer look

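For 119 second loci the difference between RNase R and none was itself different in dbr1-2 and Col-0 (limma interaction, Benjamini-Hochberg adjusted). Positive values mean a more positive difference in dbr1-2 than in Col-0. The undigested levels by which second loci were chosen enter this interaction. Among the named loci, the interaction on the log2(FPKM + 1) scale was 5.17 for AT4G03360, 3.88 for AT4G14720 and 3.34 for CYCD1;1 (AT1G70210). It was 3.09 for CRK19 (AT4G23270) and 2.94 for DJ1B (AT1G53280). It was -2.17 for AT3G06435, -1.63 for AT3G44570, -0.81 for AT5G04670 and -0.68 for AT1G71410. The interaction did not pass with a pseudocount of 0.1 for AT4G14720 (limma adjusted p = 0.186), AT3G06435 (0.0727), AT3G44570 (0.322) and AT1G71410 (0.103), or with tag year in the fit for AT4G14720 (0.0664), AT3G44570 (0.147), AT5G04670 (0.197) and AT1G71410 (0.0936). All dbr1-2 libraries with RNase R carry the earlier tag year and all Col-0 ones the later, so for each of these loci genotype and tag year cannot be told apart with RNase R.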

How the results depend on the processing

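With RNase R against none, total calls (284 in dbr1-2, 263 in Col-0) ran between 229 and 301 in dbr1-2 and between 203 and 269 in Col-0 over the alternatives, but their direction moved: without organelle loci 175 were higher and 54 lower in dbr1-2, in place of 275 and 9, and 124 were higher and 79 lower in Col-0, in place of 251 and 12. Calls between genotypes without RNase R (37) were 21 with no minimum level, 16 under median-ratio scaling, 76 without organelle loci, and 14 to 48 with 1 library left out. Calls between genotypes with RNase R (207) were 132 with tag year in the fit, 112 without organelle loci, and 175 to 199 with 1 library left out. Interaction calls (119) were 49 with a pseudocount of 0.1, 50 with tag year in the fit, 45 without organelle loci, and 68 to 133 with 1 library left out; the 3 lowest of these, 68, 74 and 69, were without Col-0 replicate 1, Col-0 replicate 2 and dbr1-2 replicate 2 without RNase R. The replicate block gave 34, 202, 284, 263 and 120 calls for the genotypes undigested, the genotypes digested, RNase R in dbr1-2, RNase R in Col-0, and the interaction. Among named loci, the block ended the calls of AT5G18400 without RNase R (limma adjusted p = 0.0518), of BTF3 (0.0585) and AT3G59950 (0.0590) with RNase R, and of the interaction of AT1G71410 (0.0576). Of 726 values of 49 named results under alternatives, 634 kept direction and side of the threshold, 89 no longer passed and 3 changed sign, all under median-ratio scaling: SYNC3 (AT1G70980) at 0.041 in dbr1-2 and 0.23 in Col-0, and AT4G32420 at 0.092 in Col-0. The cause was not tested. Where 1 read on 1 kb is worth up to 0.116 FPKM, 3 reads are worth up to 0.348 FPKM, and differences between levels under this are not detectable at this depth.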

Other observations

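Under 25 names there was more than 1 second locus, 53 second loci in all. All second loci of a name were called higher with RNase R in dbr1-2 for 18 of these names and in Col-0 for 17, and no name had none higher in dbr1-2. In the same fit with no minimum level, 81.45% of all 345 second loci were higher in dbr1-2 and 71.88% in Col-0. High counts are therefore not particular to these names. Second loci of 1 name share an interval and may share reads, so they do not count as separate cases.

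The widest gaps without RNase R were found where the second locus was listed at almost 0. The second locus of AOP2 (AT4G03060), named after an annotated transcribed pseudogene, had 7.82 and 5.34 FPKM in dbr1-2 and 1.46 and 1.40 FPKM in Col-0 with digestion. It had under 0.001 FPKM in all 4 libraries without. NUDT2 (AT5G47650), a nudix hydrolase, had 4.27 and 4.52 FPKM in dbr1-2 and 0.365 and 0.959 FPKM in Col-0 with digestion, and likewise under 0.001 FPKM without. Both dbr1-2 libraries with RNase R were above both Col-0 libraries at each. NUDT2 reached 1 FPKM in the digested dbr1-2 libraries alone, so no test of its difference is given. The second locus of AT5G65610 stayed under 0.001 FPKM in all 8 libraries, while its partner had between 0.376 and 0.871 FPKM.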
